A study of Mus musculus with 50 samples.

Results

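The genes described here lie at the distal end of the mouse X chromosome. They were taken by position: every gene of the RNA count tables listed on chromosome X with a start at or beyond 140 Mb (mouse build mm9) was included. Ribosomal protein genes and 10 other genes (Kdm5c, Apex2, Smc1a, Sat1, Syap1, Mid1, Rbbp7, S100g, Sh3kbp1 and G530011O06Rik) were left out by the rule. Of 165 genes past that position, 10 were left out by name and 0 were ribosomal protein genes, which left 155 of the 24391 genes in the tables. The last of them starts at 166.2 Mb. A read was counted for 126 of the 155 genes in at least 1 library, and 29 had none. Among the 155 are 12 microRNA genes, 8 of which had no read.

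Poly(A) RNA was sequenced from mouse embryonic stem (ES) cells that had been differentiated for 4 days as embryoid bodies and 10 days on plates, and from mouse embryonic fibroblasts (MEF). The ES cells were heterozygous (RepB+/-) or homozygous (RepB-/-) for loss of Repeat B of Xist, or wild type (WT), with 2 libraries each. The MEF had lost Repeat B (RepB MEF) or were WT, with 1 library each, so no MEF difference has a replicate check. All cells share a hybrid strain background of CAST/Ei and 129/Sv/Jae, so that reads covering a strain difference were counted by the authors for the CAST or the 129 chromosome. The labels do not say which Xist copy lost the repeat in RepB+/-, nor whether the RepB MEF lost it on 1 or on both copies. They do not say whether the replicates are separate cultures or clones, so the spread behind each p-value is that between these libraries and may be technical. ES cells had been grown on fibroblast feeders that were removed before differentiation. Total counts were between 8000722 (RepB+/- replicate 2) and 28045645 per ES library, 18631736 in RepB MEF and 12126941 in WT MEF. Between 26.7% and 27.99% of counts could be given to an allele.

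In female mammals 1 X chromosome of each cell is silenced. Xist, a long non-coding RNA, spreads in cis over the chromosome that makes it, and its Repeat B is the part known to bring Polycomb complexes, which deposit repressive histone marks. Some genes, called escape genes, are known to stay transcribed from the inactive X chromosome. In all 8 libraries most Xist reads came from the 129 chromosome. Their share was 97.8% and 97.2% in RepB+/-, 89.2% and 87.2% in RepB-/-, and 98.9% and 98.6% in WT ES cells. In MEF it was 99.2% in RepB and 99.7% in WT. Since Xist is counted as a whole, its level is no check of the loss of a part. A share of reads from 129 is therefore a share from the chromosome that carried most Xist in the culture as a whole, and was not resolved by cell.

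The ES cultures were mixed, and their composition moved with genotype. The summed level of 6 pluripotent cell markers, on a scale of counts per library size (CPM), was 559 and 407 CPM in RepB+/-, 427 and 355 in RepB-/-, and 143 and 169 in WT. For 6 cardiomyocyte markers it was 229 and 246 in RepB+/-, 186 and 189 in RepB-/-, and 467 and 513 in WT. For 6 endoderm and yolk sac markers it was 764 and 678 in RepB+/-, 629 and 547 in RepB-/-, and 293 and 320 in WT. The 6 fibroblast markers summed to between 16239 and 31064 CPM in all 6 ES libraries. Of 6 macrophage markers the sum was 163 and 212 CPM in RepB+/-, 183 and 229 in RepB-/-, and 131 and 125 in WT, and of 6 neural markers 189 and 202, 174 and 161, and 121 and 118. Endothelial markers summed to 321 and 335 CPM in RepB+/-, 261 and 266 in RepB-/-, and 331 and 369 in WT. No marker of these 7 lists was at 0 in any ES library. In MEF the fibroblast markers summed to 32344 CPM in RepB and 38258 in WT, with Thy1 at 0 in RepB. The part of these differences in cell markers in the 129 shares and in the total reads given below was not tested. In bulk RNA, fewer cells of a type and less RNA per cell cannot be told apart.

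Of the 155 genes, 60 averaged at least 20 allelic reads per ES library and were measured for alleles, and 95 were not. With the minimum taken over the WT libraries alone 55 of them passed, and 5 (Gpr173, Map7d2, Txlng, Siah1b and Fancb) passed only through the RepB libraries. Counts of all reads could be tested for 81 genes. The promoters of the measured genes were rich in CpG, the dinucleotide that marks CpG island promoters of widely expressed genes. RefSeq promoters (build GRCm38.p6, 250 bases before to 50 after each gene's start) were matched for 119 of the 155 genes, 8 of them through a synonym. The median observed over expected CpG was 0.694 for the 54 measured genes with a promoter and 0.239 for the 65 genes with fewer allelic reads. It was 0.367 for 928 other X-linked promoters and 0.416 for 25979 promoters of other chromosomes. The binding motif of YY1 in the form AANATGGCG, searched on both strands, was found in 5 of 119 promoters (4.2%), against 3.56% of other X-linked promoters and 2.73% of those of other chromosomes. Promoters of 4 genes that the results below turn on are printed 5′ to 3′ with every CG in capitals: Alg13, which had the highest 129 share in WT among the 12 genes with most allelic reads, Huwe1 and Zrsr2, whose 129 shares were several times higher in RepB than in WT ES cells, and Mageh1, which had no read in RepB MEF. They lie on GRCm38.p6 at chrX:144317716-144318015 (plus strand), chrX:151803032-151803331 (plus), chrX:163958617-163958916 (minus) and chrX:153037514-153037813 (minus), in that order.
Alg13: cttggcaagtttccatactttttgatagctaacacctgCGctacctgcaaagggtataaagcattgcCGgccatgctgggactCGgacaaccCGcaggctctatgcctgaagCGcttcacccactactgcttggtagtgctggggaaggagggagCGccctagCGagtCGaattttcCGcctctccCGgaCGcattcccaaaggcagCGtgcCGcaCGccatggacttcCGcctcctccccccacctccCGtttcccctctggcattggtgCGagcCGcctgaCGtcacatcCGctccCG
Huwe1: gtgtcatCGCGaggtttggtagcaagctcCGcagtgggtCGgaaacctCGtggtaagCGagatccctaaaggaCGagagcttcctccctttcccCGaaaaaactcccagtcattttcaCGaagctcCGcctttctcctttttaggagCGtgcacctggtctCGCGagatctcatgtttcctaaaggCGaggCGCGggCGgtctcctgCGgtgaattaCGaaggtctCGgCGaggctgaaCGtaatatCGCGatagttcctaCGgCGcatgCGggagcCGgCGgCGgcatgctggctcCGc
Zrsr2: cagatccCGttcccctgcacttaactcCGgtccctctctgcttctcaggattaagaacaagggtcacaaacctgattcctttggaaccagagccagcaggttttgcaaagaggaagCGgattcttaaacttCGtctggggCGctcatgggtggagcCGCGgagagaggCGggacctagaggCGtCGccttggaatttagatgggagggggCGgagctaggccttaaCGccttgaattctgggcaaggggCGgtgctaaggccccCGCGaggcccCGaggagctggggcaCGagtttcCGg
Mageh1: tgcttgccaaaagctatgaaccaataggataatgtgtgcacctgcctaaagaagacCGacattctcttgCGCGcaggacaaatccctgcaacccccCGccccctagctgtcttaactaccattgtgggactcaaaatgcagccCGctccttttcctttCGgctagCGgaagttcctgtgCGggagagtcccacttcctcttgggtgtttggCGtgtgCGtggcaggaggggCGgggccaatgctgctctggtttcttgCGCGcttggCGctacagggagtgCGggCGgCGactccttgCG
These windows hold 21, 31, 18 and 18 CG dinucleotides, and their observed over expected CpG is 0.792, 1.22, 0.692 and 0.713, in the same order.

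In RepB ES cells, genes of this chromosome end had a higher share of reads from the 129 chromosome than in WT, as did other X-linked genes. The median 129 share of the 60 genes was 33.1% ± 0.695 in RepB+/-, 32.8% ± 2.54 in RepB-/- and 5.10% ± 0.495 in WT (SD, n = 2 each). By library it was 32.6% and 33.6% in RepB+/-, 34.6% and 31.0% in RepB-/-, and 4.75% and 5.45% in WT, so that neither RepB genotype overlapped WT. The sums of pluripotent cell markers (355 to 559 CPM in RepB, 143 and 169 in WT) moved with genotype in the same libraries. So did those of endoderm markers (547 to 764 in RepB, 293 and 320 in WT). The 129 share of Xist reads was 97.8% and 97.2% in RepB+/-, 89.2% and 87.2% in RepB-/-, and 98.9% and 98.6% in WT. The part of these differences in the 129 shares of the genes was not tested. For 316 other X-linked genes the medians were 33.5% ± 3.72, 35.0% ± 1.17 and 6.15% ± 0.844 in the same order of genotypes. For 418 autosomal genes, those of chromosome 13, they were 50.3%, 50.0% and 50.4%. Of the 60 genes, 35 shifted toward 129 in RepB+/- and 36 in RepB-/-, and 0 toward CAST in either genotype (edgeR quasi-likelihood test of the allele ratio across 11597 genes, threshold 0.05 after Benjamini-Hochberg adjustment). Among all genes tested 2.1% and 2.24% shifted toward 129, among other X-linked genes 60.1% and 62.7%, and on chromosome 13 0 did. The shares among the 60 genes, 58.3% and 60%, are near those of other X-linked genes. With the minimum of 20 allelic reads taken over the WT libraries alone, 34 and 35 of 55 genes shifted toward 129. The median shares of these 55 genes were 32.5% ± 1.18 in RepB+/-, 32.0% ± 1.87 in RepB-/- and 4.93% ± 0.236 in WT. Both RepB+/- libraries lay above both WT libraries for 49 of the 60 genes (81.7%, against 83.2% of other X-linked genes and 14.7% of all genes), and both RepB-/- libraries did so for 57 (95%, against 89.2% and 14.7%). DESeq2 called 23 and 26 of the 60, and leaving out WT replicate 1 left 25 in each comparison. In each comparison 23 genes kept their call in all 6 fits that left out 1 library. Both comparisons share the WT libraries.

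The genes with most allelic reads show the pattern gene by gene. Maged2, a melanoma antigen family gene at 147.2 Mb, had a 129 share of 16.9% and 13.8% in RepB+/-, 17.6% and 15.3% in RepB-/-, and 2.24% and 2.56% in WT. On the log2 scale its ratio of 129 over CAST reads was higher than in WT by 2.91 in RepB+/- (SE 0.21) and 3.01 in RepB-/- (SE 0.21), with edgeR adjusted p = 7.08e-39 and 1.77e-43. This was the lowest mean share among the called genes in both genotypes. Amot encodes angiomotin, a junction protein of the Hippo pathway. Its 129 share was 24.8% and 21.9% in RepB+/-, 28.5% and 25.7% in RepB-/-, and 2.01% and 2.80% in WT. Huwe1 encodes a large HECT-type ubiquitin ligase and lies on the plus strand, with an exon listed at chrX:148237825-148238112 (mm9). Its 129 share was 40.6% and 37.2% in RepB+/-, 40.5% and 40.1% in RepB-/-, and 7.05% and 8.52% in WT. The log2 ratio was higher by 2.95 (SE 0.22) and 3.02 (SE 0.22), at edgeR adjusted p = 2.23e-36 and 5.78e-40. Tspyl2, a nucleosome assembly protein family gene, reached 33.4% and 28.2% in RepB+/- and 36.6% and 30.7% in RepB-/-, against 1.67% and 1.73% in WT. Neither genotype overlapped WT for any of these genes, and all 12 most-read genes were called in both comparisons and in every fit without 1 library.

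**Figure D1:**
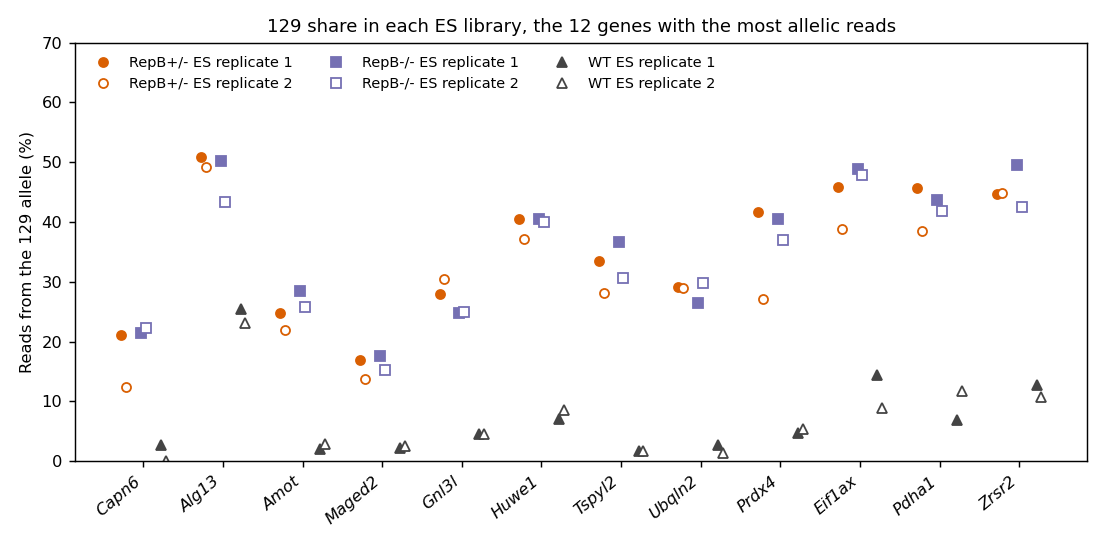
Share of reads from the 129 allele (%) in each ES library for the 12 genes with the most allelic reads, in chromosomal order. Filled and open symbols are replicates 1 and 2; every RepB+/- and RepB-/- value lies above both WT values of its gene, and Alg13 has the highest WT shares (25.4% and 23.2%).

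Grouped by textbook role, the shifted genes were of many kinds. Of 8 genes of chromatin and transcription 6 were measured for alleles, and 5 shifted toward 129 in each RepB genotype. Fancb is among these 5 and passed the minimum of allelic reads only through the RepB libraries, so it adds no weight to the count. Msl3, a subunit of the MSL histone acetyltransferase complex, had a 129 share of 46.4% and 43.5% in RepB+/-, 43.4% and 46.5% in RepB-/-, and 1.67% and 2.17% in WT. Phf8, a histone demethylase gene, had 36.1% and 39.0% in RepB+/-, 35.5% and 34.9% in RepB-/-, and 1.94% and 5.10% in WT. For Msl3 the log2 ratio was higher by 5.40 (SE 0.73) and 5.37 (SE 0.70), at edgeR adjusted p = 2.66e-11 and 2.69e-12. The member of this list that was measured and not called was Scml2, a Polycomb group gene, with 30.1% and 46.2% in RepB+/-, 18.1% and 32.6% in RepB-/-, and 19.6% and 4.76% in WT, where RepB-/- and WT overlapped.

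Of 15 genes of energy, amino acid, nucleotide and lipid metabolism 13 were measured, and 10 shifted toward 129 in RepB+/- and 11 in RepB-/-. Pdha1, the E1 alpha subunit of pyruvate dehydrogenase, had a 129 share of 45.8% and 38.4% in RepB+/-, 43.6% and 41.9% in RepB-/-, and 6.93% and 11.7% in WT. Ctps2, a CTP synthase gene, had 40.7% and 21.0% in RepB+/-, 43.6% and 42.2% in RepB-/-, and 1.16% and 8.26% in WT. Prdx4, a peroxiredoxin gene, had 41.6% and 27.2% in RepB+/-, 40.5% and 36.9% in RepB-/-, and 4.73% and 5.35% in WT. None of these groups overlapped WT, and the wider spread was in RepB+/-, whose replicate 2 was the shallowest library. Hccs, which attaches haem to cytochrome c, and Hsd17b10, a mitochondrial dehydrogenase gene, also shifted in both genotypes. Sms, the spermine synthase gene, had 26.3% and 20.0% in RepB+/-, 33.3% and 35.6% in RepB-/-, and 2.94% and 2.56% in WT. It was called in RepB-/- (edgeR adjusted p = 0.0023) and not in RepB+/- (adjusted p = 0.056), and the first call was lost without WT replicate 1 (adjusted p = 0.0607) and without WT replicate 2 (adjusted p = 0.105).

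Of 10 genes of the cytoskeleton and cell shape 7 were measured, and 5 shifted in each genotype, with a lower median 129 share of 24.1% ± 3.07 in RepB+/-, 23.8% ± 2.11 in RepB-/- and 3.59% ± 1.35 in WT (SD, n = 2). Shroom2, an actin-binding protein gene, had 28.0% and 39.4% in RepB+/-, 23.3% and 20.0% in RepB-/-, and 3.85% and 4.55% in WT. Arhgap6, a GTPase-activating protein gene, had no 129 read among 93 and 43 allelic reads in WT, which allows shares of up to 3.23% and 6.98%. It had 26.7% and 27.8% in RepB+/- and 27.8% and 17.6% in RepB-/-. All 4 RepB libraries lay above those limits. The call in RepB-/- was lost without WT replicate 1 (edgeR adjusted p = 0.0709).

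Of 12 genes of kinases and signalling 8 were measured, and 0 shifted in RepB+/- and 1 in RepB-/-. The gene called was Rps6ka3, the ribosomal S6 kinase RSK2, with 23.7% and 2.17% from 129 in RepB+/-, 17.5% and 21.7% in RepB-/-, and 6.47% and 3.17% in WT. Its edgeR adjusted p was 0.122 in RepB+/-, where replicate 2 lay below both WT libraries, and 0.0391 in RepB-/-. Its call was lost without either RepB-/- library (adjusted p = 0.179 without replicate 1 and 0.516 without replicate 2) and without either WT library (0.240 and 0.300). The median share of these 8 genes was 23.7% ± 9.12 in RepB+/-, 24.4% ± 0.970 in RepB-/- and 6.42% ± 3.65 in WT. A p that misses the threshold does not show that these genes were silent on 129. Of 13 genes of receptors, channels and surface proteins 1 was measured, the orphan receptor gene Gpr173, which had 7.14% ± 10.1 in RepB+/-, 17.1% ± 0.589 in RepB-/- and 0 of its allelic reads in WT, and was not called (edgeR adjusted p = 0.91 and 0.38).

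Of 7 genes of vesicle traffic and organelles 6 were measured and 3 shifted in each genotype. Without WT replicate 1 the counts were 1 in RepB+/- and 2 in RepB-/-, and in RepB+/- 2 were called without RepB+/- replicate 1, either RepB-/- library or WT replicate 2. Ofd1, a centriole and cilium gene, had 43.1% and 35.7% in RepB+/-, 38.3% and 44.9% in RepB-/-, and 9.34% and 8.49% in WT. Mbtps2, the site-2 protease gene, shifted with them, but in RepB+/- its call stood in only 1 of 6 fits without 1 library. The adjusted p was 0.407 without RepB+/- replicate 1, 0.106 and 0.112 without RepB-/- replicates 1 and 2, and 0.277 and 0.120 without WT replicates 1 and 2. In RepB-/- it was lost without RepB-/- replicate 2 (adjusted p = 0.0711). Of 6 genes of RNA processing and ribosome assembly all were measured, and 5 shifted in RepB+/- and 4 in RepB-/-, of which 2 in each were called without WT replicate 1. Zrsr2, a splicing factor gene of the U2AF35 type, had 44.6% and 44.9% in RepB+/-, 49.5% and 42.6% in RepB-/-, and 12.8% and 10.8% in WT. Gnl3l, a nucleolar GTPase gene, had 28.0% and 30.5%, 24.8% and 24.9%, and 4.48% and 4.5% in the same order of genotypes. Of 7 genes of the MAGE family only Maged2 had enough allelic reads. No list holds the remaining 77 genes, and 12 of these were measured, among them the translation initiation factor gene Eif1ax and the ubiquilin gene Ubqln2, which both shifted.

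The size of the shift differed between the genes. The 6 genes with the largest change of the 129 share were Piga, Fancb, A830080D01Rik, Msl3, Tceanc and 2210013O21Rik. Fancb, a Fanconi anaemia DNA repair gene, had 55.6% and 63.6% in RepB+/-, 58.7% and 65.5% in RepB-/-, and 6.25% in each WT library. It passed the minimum only through the RepB libraries, having 16 allelic reads per WT library, so its place in this order carries no weight. Its call was lost without either WT library in RepB+/- (edgeR adjusted p = 0.156 and 0.158) and in RepB-/- (0.0631 and 0.0554), and without RepB+/- replicate 1 (0.151 in RepB+/-). Piga, which starts the synthesis of glycosylphosphatidylinositol anchors, had 51.1% and 100% in RepB+/-, 43.8% and 42.6% in RepB-/-, and 2.56% and 0% in WT. The value of 100% in RepB+/- replicate 2 rests on 19 reads, and the calls were lost without WT replicate 1 (adjusted p = 0.0742 in RepB+/- and 0.438 in RepB-/-). The 6 genes with the smallest change were Gemin8, Mageh1, Cnksr2, Nhs, Iqsec2 and Rps6ka3. Mageh1, a MAGE homology gene, had 14.3% and 2.86% in RepB+/-, 15.6% and 11.0% in RepB-/-, and 5.34% and 1.32% in WT, and the RepB+/- libraries overlapped those of WT (edgeR adjusted p = 0.46 and 0.17).

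Along the chromosome end the 129 share was higher beyond 155 Mb than before it in both RepB genotypes, though not highest in the last stretch. Split at 155 Mb, a point chosen after the values were seen, the 29 measured genes beyond it had a median share of 40.7% ± 0.0325 in RepB+/-, 42.7% ± 1.25 in RepB-/- and 7.26% ± 1.42 in WT (SD, n = 2). The 31 genes before it had 26.5% ± 2.12 in RepB+/-, 25.9% ± 0.736 in RepB-/- and 3.64% ± 1.19 in WT. In each of the 6 libraries the later genes had the higher median. By library it was 40.7% and 40.7% against 28.0% and 25% in RepB+/-, and 43.6% and 41.9% against 26.4% and 25.4% in RepB-/-. In WT it was 6.25% and 8.26% against 4.48% and 2.80%. The later genes had fewer reads, with a median of 78.8 allelic reads per library against 187. Among genes with at least 100 allelic reads the medians were 39.5% ± 3.41 and 42.8% ± 1.05 over 10 later genes, against 29.4% ± 0.0145 and 28.9% ± 1.96 over 20 earlier genes, in RepB+/- and RepB-/-. In stretches of 5 Mb the lowest medians lay between 140 and 145 Mb in RepB+/- (24.1% ± 1.05, 5 genes) and between 145 and 150 Mb in RepB-/- (24.5% ± 0.368, 19 genes), and the highest between 160 and 165 Mb in both (44.5% ± 0.948 and 43.2% ± 0.860, 14 genes). The last stretch, from 165 Mb on, holds 3 genes and had 37.8% ± 2.79 in RepB+/-, 40.2% ± 4.58 in RepB-/- and 1.92% ± 0.359 in WT, the lowest WT value of all stretches. Across the 60 genes the correlation of the share with position was r = 0.39 and Spearman's coefficient = 0.41 in RepB+/-, r = 0.43 and Spearman's coefficient = 0.42 in RepB-/-, and r = 0.23 and Spearman's coefficient = 0.21 in WT. With the WT share of the same gene it was r = 0.60 and Spearman's coefficient = 0.48 in RepB+/- and r = 0.66 and Spearman's coefficient = 0.64 in RepB-/-. With the logarithm of allelic reads it was r = -0.05 in RepB+/- and 0.09 in RepB-/-. These points are genes of the same libraries and are not independent, so the correlations are descriptions.

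**Figure D2:**
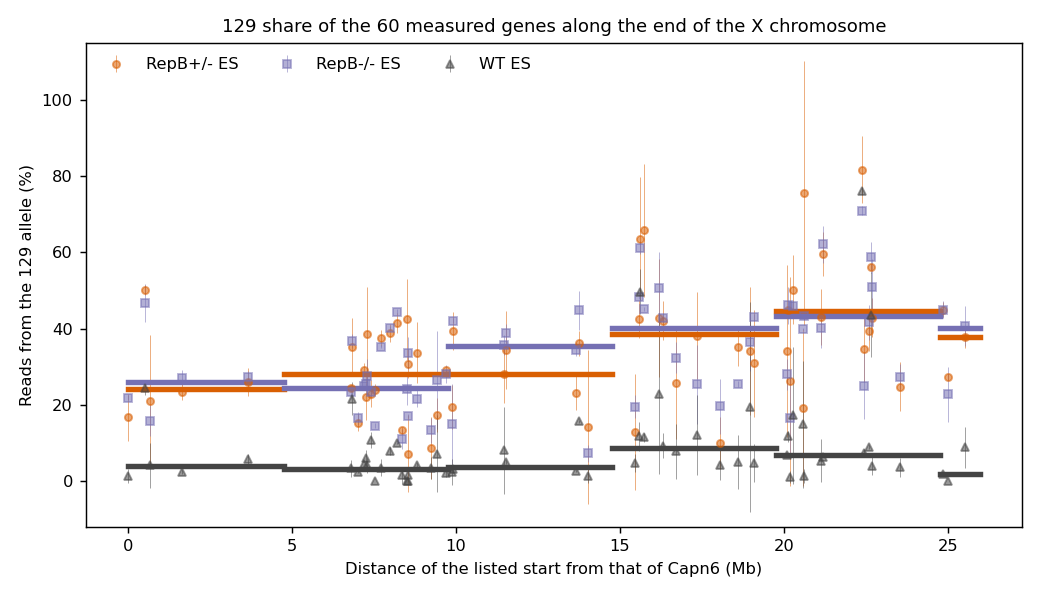
Share of reads from the 129 allele (%) for the 60 measured genes (mean of 2 libraries, bars SD) against the distance of their listed start from that of Capn6, the first gene past 140 Mb. Thick lines are medians in stretches of 5 Mb; those of RepB+/- and RepB-/- lie above WT in every stretch and are highest for genes between 160 and 165 Mb (44.5% and 43.2%, against 6.79% in WT).

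Values on both sides of the 140 Mb limit were as follows. Just inside it, Capn6 at 140.2 Mb, a calpain family gene, had a 129 share of 16.7% ± 6.15 in RepB+/-, 21.9% ± 0.664 in RepB-/- and 1.32% ± 1.86 in WT (SD, n = 2). Dcx, the doublecortin gene of migrating neurons, is next and had at most 9 reads in any ES library. Just outside, Ammecr1 at 139.3 Mb had 34.6% ± 1.75, 25.4% ± 4.49 and 6.41% ± 5.08 in the same order, and Tmem164 at 139.1 Mb had 37.9% ± 3.87, 35.7% ± 0.284 and 3.97% ± 0.0681.

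In WT cells a few genes had a larger share of reads from 129. A 129 share of at least 10% in both WT libraries was found for 8 of the 60 genes (13.3%) and for 78 of 316 other X-linked genes (24.7%). The rule itself removed genes of this kind. Of the 10 genes left out by name, some of which, such as Kdm5c, are known escape genes, 3 reached it, and with them added it was 11 of 70 (15.7%). The 10 are counted among the other X-linked genes, and without them it was 75 of 306 (24.5%). These shares were not tested against each other. The 8 were Alg13, Tro, Mbtps2, Map7d2, A830080D01Rik, Zrsr2, Gemin8 and Rab9. In 38 genes both WT libraries lay below 10%, and in 4 (Fam120c, Kantr, Gpr173 and Arhgap6) no 129 read was counted in WT. Alg13, a subunit gene of the enzyme that adds the second sugar of N-glycans, had 51.0% and 49.2% in RepB+/-, 50.3% and 43.3% in RepB-/-, and 25.4% and 23.2% in WT. Its log2 ratio was higher by 1.65 (SE 0.30) and 1.45 (SE 0.29), at edgeR adjusted p = 2.22e-06 and 2.9e-05. Gemin8, a gene of the SMN complex that assembles splicing particles, was mostly read from 129 in every genotype, with 75.5% and 88.0% in RepB+/-, 70.1% and 71.7% in RepB-/-, and 75.4% and 76.9% in WT. Its groups overlapped and it was not called (log2 change 0.24 in RepB+/- and -0.37 in RepB-/-). Rab9, a late endosome GTPase gene, had 56.6% and 55.6% in RepB+/-, 61.5% and 55.8% in RepB-/-, and 51.6% and 35.7% in WT, and was not called either. Map7d2, a microtubule-associated protein gene, had 52.1% and 75%, 60.0% and 62.5%, and 53.8% and 45.5% in the same order, on no more than 13 allelic reads per WT library.

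The reads of each allele were also scaled to the library's total counts (CPM without TMM, unlike the CPM of all reads), to show which allele's level differed. For 129 reads, the median over the 60 genes of the log2 change was 2.74 ± 0.166 in RepB+/- and 2.72 ± 0.0455 in RepB-/- relative to WT (SD, n = 2, pseudocount of 0.05 CPM). The median change of CAST reads was -0.02 ± 0.186 in RepB+/- and 0.02 ± 0.0079 in RepB-/-. With TMM-scaled library sizes, an alternative chosen after the data were seen, it was -0.09 and -0.05, and its sign depended on the setting. Without TMM, the medians of 316 other X-linked genes for 129 reads were 2.43 ± 0.422 in RepB+/- and 2.59 ± 0.0663 in RepB-/-. For CAST reads they were -0.08 ± 0.210 and -0.07 ± 0.0171. On chromosome 13 the medians were 0.05 and 0.12 for 129 reads and 0.08 and 0.15 for CAST reads. Summed over the 60 genes, 129 reads came to 258 ± 49.5 CPM in RepB+/-, 269 ± 8.44 in RepB-/- and 39.5 ± 1.19 in WT. CAST reads came to 563 ± 37.0 in RepB+/-, 541 ± 8.62 in RepB-/- and 578 ± 37.6 in WT, which overlapped within their SD. Huwe1 had 31.7 ± 7.04 CPM from 129 in RepB+/-, 32.2 ± 3.72 in RepB-/- and 4.48 ± 0.225 in WT, beside 49.5 ± 6.14, 47.7 ± 6.07 and 53.4 ± 5.06 from CAST. For Alg13 the mean of CAST reads was 14.3 ± 4.21 CPM in RepB+/- and 14.1 ± 1.26 in RepB-/-, against 9.83 ± 1.47 in WT, beside 14.5 ± 4.95, 12.4 ± 1.35 and 3.14 ± 0.198 from 129. Figf, a vascular endothelial growth factor gene (VEGF-D), had 3.15 ± 0.925, 3.08 ± 0.219 and 1.25 ± 0.528 CAST CPM in the same order (SD, n = 2). These differences of single alleles were not tested.

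**Figure D3:**
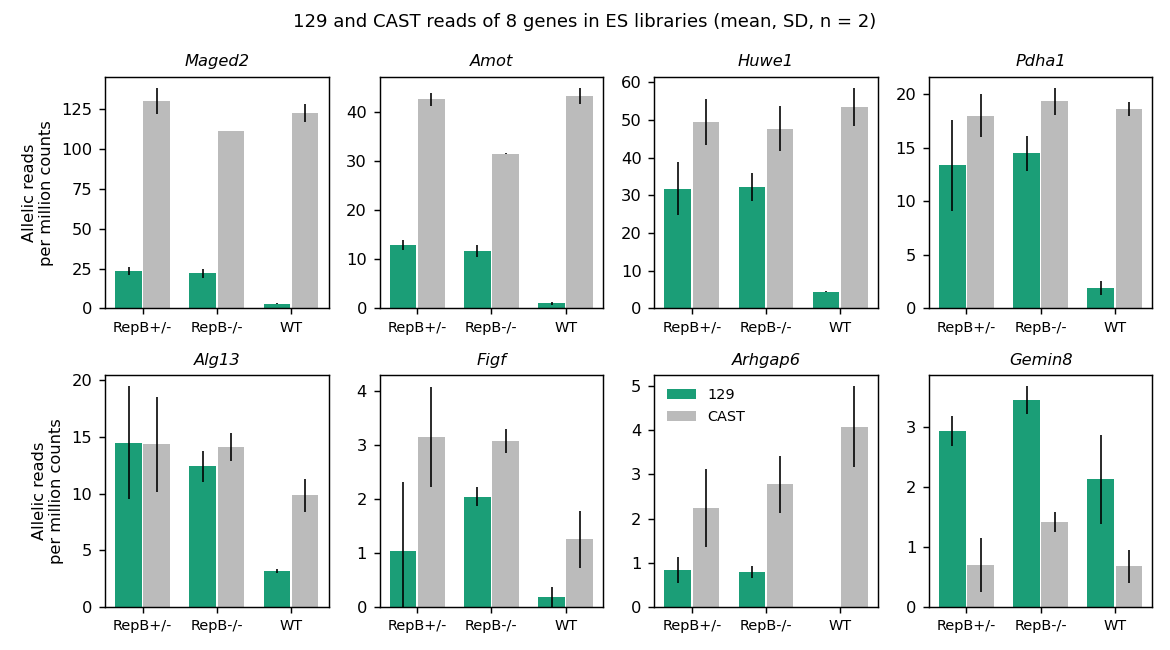
Library-size-scaled reads (CPM) from the 129 (green) and CAST (grey) alleles of 8 genes in RepB+/-, RepB-/- and WT ES libraries (mean of 2 libraries, bars SD). Huwe1 has 31.7, 32.2 and 4.48 CPM from 129 in the 3 genotypes, whereas its CAST reads lie between 47.7 and 53.4.

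Reads of both alleles together rose for many of the genes. Of 81 genes tested, 31 rose and 1 fell in RepB+/-, and 27 rose and 4 fell in RepB-/- (edgeR quasi-likelihood test across 15149 genes, threshold 0.05 after Benjamini-Hochberg adjustment). That is 38.3% higher and 1.23% lower in RepB+/-, where 9.11% of all genes rose and 6.84% fell. It is 33.3% higher and 4.94% lower in RepB-/-, where 7.26% of all genes rose and 5.49% fell. Among other X-linked genes 32.7% rose and 5% fell in RepB+/-, and 31.2% rose and 5.21% fell in RepB-/-. On chromosome 13 7.82% rose and 7.09% fell in RepB+/-, and 5.64% rose and 5.82% fell in RepB-/-. The median log2 change was 0.39 in both genotypes, against 0.37 and 0.36 for other X-linked genes and 0.02 and 0.01 for all genes. The counts rest on few libraries, since 8 of the 31 and 11 of the 27 kept their call in all 6 fits without 1 library, and 0 of the 5 calls of lower reads did. Without WT replicate 2 the calls came to 13 in RepB+/- and 14 in RepB-/-. Without RepB+/- replicate 1 they came to 18 in RepB+/-, and in RepB-/- they came to 14 and 19 without RepB-/- replicates 1 and 2, and to 19 without WT replicate 1. The higher pluripotent and endoderm markers and lower cardiomyocyte markers of the RepB libraries given above move with these calls, and their part in them was not tested. Both comparisons share the WT libraries.

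Figf, which drives the growth of lymphatic vessels, had 18.9 and 13.8 CPM in RepB+/-, 18.2 and 17.8 in RepB-/-, and 4.99 and 5.33 in WT. In RepB+/- it rose by 1.70 on the log2 scale (SE 0.19), in RepB-/- by 1.80 (SE 0.18), at edgeR adjusted p = 4.73e-05 and 2.53e-05. Alg13 had 92.4 and 68.0 CPM in RepB+/-, 71.0 and 70.4 in RepB-/-, and 36.6 and 40.2 in WT (log2 change 1.08 and 0.87, adjusted p = 0.000109 and 0.000495). Both genes were separated from WT by more than the range of any group. Map3k15, a stress kinase gene upstream of MAP kinases, had 24.3 and 17.4 CPM in RepB+/-, 14.2 and 16.1 in RepB-/-, and 7.20 and 7.95 in WT. Tlr7, the endosomal receptor for single-stranded RNA, had 107 and 27 reads in RepB+/-, 87 and 92 in RepB-/-, and 31 and 11 in WT. Its calls were lost without WT replicate 2 (adjusted p = 0.0888 in RepB+/- and 0.101 in RepB-/-) and, in RepB-/-, without RepB-/- replicate 2 (0.116). It was too thinly covered for a test of alleles. The macrophage markers were higher in the 4 RepB libraries as well (163 to 229 CPM, against 131 and 125 in WT), and their part in the Tlr7 reads was not tested. Further genes that rose in both genotypes under every omission were Map7d2, Ctps2, Fancb and Tceanc, a transcription elongation factor gene, with log2 changes between 0.64 (Ctps2 in RepB-/-) and 1.59 (Map7d2 in RepB+/-).

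Some genes that shifted toward 129 were not called in total reads, among them Huwe1 and Maged2. Huwe1 had 845 and 768 CPM in RepB+/-, 748 and 901 in RepB-/-, and 618 and 650 in WT (log2 change 0.35 and 0.37, edgeR adjusted p = 0.104 and 0.0993). Maged2 had 333 and 402 CPM in RepB+/-, 340 and 321 in RepB-/-, and 324 and 329 in WT, with overlap between RepB-/- and WT. Across the 60 genes the total log2 change and the change of the 129 share had r = 0.19 and Spearman's coefficient = 0.26 in RepB+/- and r = 0.39 and Spearman's coefficient = 0.44 in RepB-/-. These are descriptions over genes of shared libraries. Map7d2, in which both alleles were already read in WT, had 14.3 and 10.4 CPM in RepB+/-, 11.1 and 10.8 in RepB-/-, and 3.55 and 5.08 in WT, without a called shift of alleles.

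The genes beyond 155 Mb had the larger changes of total reads as well, with a median log2 change of 0.52 in RepB+/- and 0.53 in RepB-/-, against 0.17 and 0.13 before 155 Mb among the 60 genes. By role, 6 of 7 tested genes of vesicle traffic and organelles rose in RepB+/- and 5 in RepB-/-, but the counts rest on single libraries. In RepB+/- 0 were called without WT replicate 2 and 1 without RepB+/- replicate 1. In RepB-/- 1 was called without WT replicate 2, 2 without RepB-/- replicate 1, and 3 without RepB-/- replicate 2 or WT replicate 1. Among them Mospd2, a lipid and membrane contact gene, had 46.3 and 36.0 CPM in RepB+/-, 47.7 and 49.5 in RepB-/-, and 29.2 and 21.7 in WT. In RepB+/- its call was lost without RepB+/- replicate 1 (edgeR adjusted p = 0.0655) and without WT replicate 2 (0.0935). Of 14 metabolic genes 7 rose in each genotype and 1 fell, of 8 chromatin and transcription genes 4 rose in RepB+/- and 3 in RepB-/-, and of 10 kinase and signalling genes 3 rose in each. Leaving out 1 library gave 3 to 9 and 3 to 10 metabolic genes in RepB+/- and RepB-/-, 1 to 4 and 2 to 4 chromatin and transcription genes, and 2 to 3 kinase and signalling genes in each, the fewest without RepB+/- replicate 1 (3 metabolic and 1 chromatin gene in RepB+/-), RepB-/- replicate 1 (3 metabolic genes in RepB-/-) or WT replicate 2 (3 metabolic genes in each). Yy2, one of these chromatin and transcription genes, lies within Mbtps2, and reads of the pair may not be separable because the strand setting of the counting is not given. Of 6 genes of RNA processing 3 rose in each genotype, of 7 receptor and channel genes 2, and of the MAGE family 0 of 1. In RepB-/- 1 gene of RNA processing was called without RepB-/- replicate 1 or WT replicate 1, and 1 receptor gene was called without WT replicate 2 in either genotype and without RepB-/- replicate 2 in RepB-/-. Of 8 genes of the cytoskeleton 2 rose in RepB+/- (Fgd1 and Gpm6b) and 2 fell in RepB-/- (Nhs and Arhgap6). Each of these had the same sign in the other genotype, with log2 changes in RepB-/- of 0.29 for Fgd1 and 0.57 for Gpm6b (edgeR adjusted p = 0.098 and 0.064) and in RepB+/- of -0.41 for Nhs and -0.32 for Arhgap6 (0.075 and 0.155). Without WT replicate 2 neither Fgd1 nor Gpm6b was called in RepB+/- (0.123 and 0.0605), and Fgd1 was also lost without WT replicate 1 (0.153) and without RepB+/- replicate 2 (0.0645). The metabolic gene that fell was Car5b, a mitochondrial carbonic anhydrase gene, with 7.01 and 4.76 CPM in RepB+/-, 7.24 and 5.94 in RepB-/-, and 10.3 and 10.2 in WT (log2 change -0.73 and -0.64, adjusted p = 0.0294 and 0.0472). Tro, Nhs and Arhgap6 fell in RepB-/- by 0.36, 0.55 and 0.52 on the log2 scale (adjusted p = 0.0377, 0.0214 and 0.0267). The calls of these 3 genes, and that of Car5b in RepB-/-, were lost without either RepB-/- library and without either WT library (adjusted p between 0.0608 and 0.339), and that of Car5b in RepB+/- without RepB+/- replicate 2 (0.0735) and without either WT library (0.114 and 0.110).

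**Figure D4:**
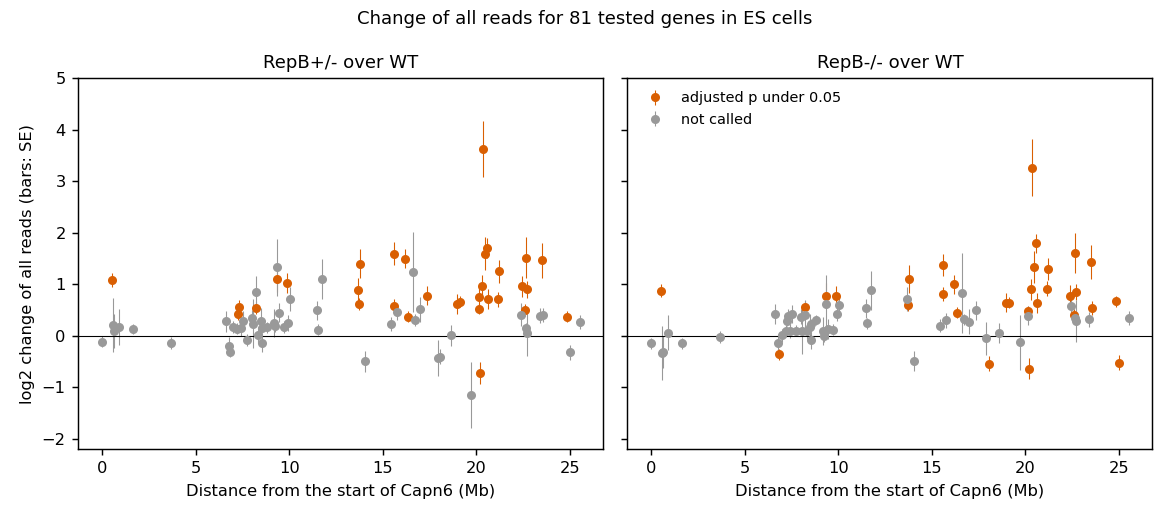
Log2 change of all reads for the 81 tested genes in RepB+/- (left) and RepB-/- (right) relative to WT ES cells, against the distance of the listed start from that of Capn6 (bars SE). Coloured points passed an adjusted p of 0.05; 31 genes rose and 1 fell in RepB+/-, and 27 rose and 4 fell in RepB-/-.

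The 2 RepB genotypes were not told apart at these genes. Of 60 genes 0 differed in the ratio of alleles between RepB-/- and RepB+/- with DESeq2 and 0 with edgeR (1 at an unadjusted p under 0.05, Shroom2). In the edgeR test 0.19% of all genes (0.316% of other X-linked genes) shifted toward 129 and 0.112% toward CAST. Without RepB+/- replicate 1 the count was 1. Of 81 genes 0 differed in total reads with DESeq2 and 0 with edgeR (4 at an unadjusted p under 0.05, Map3k15, Amot, Msl3 and Gpm6b). In the edgeR test of total reads 0.0198% of all genes were higher and 0.066% lower. With 2 libraries per genotype, a p that misses the threshold does not show that the genotypes are alike.

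In MEF most of these genes were read almost wholly from CAST in both cultures. Of the 155 genes 37 averaged at least 20 allelic reads per MEF library. Their median 129 share was 0.710% in RepB MEF and 0.204% in WT MEF, and 13 genes in RepB and 18 in WT had no 129 read. Pooled over the 37 genes, 185 of 8139 reads (2.27%, exact 95% interval 1.96% to 2.62%) came from 129 in RepB MEF and 87 of 5730 (1.52%, 1.22% to 1.87%) in WT MEF. Other X-linked genes had pooled shares of 5.19% in RepB MEF and 3.82% in WT MEF. For 0 of the 37 genes did the 2 intervals lie apart, against 2.46% of other X-linked genes and 20.6% of all genes. Maged2 had 14 of 1319 reads from 129 (1.06%) in RepB MEF and 9 of 911 (0.988%) in WT MEF. Zrsr2 had 0 of 333 in RepB MEF and 0 of 169 in WT MEF, which allows shares of up to 0.901% and 1.78%. The gene with the widest gap was Figf, with 21 of 90 reads (23.3%, 15.1% to 33.4%) in RepB MEF and 1 of 32 (3.13%, 0.079% to 16.2%) in WT MEF, and the intervals overlap. Eif1ax had 54 of 536 (10.1%) in RepB MEF and 30 of 403 (7.44%) in WT MEF. Gemin8, mostly read from 129 in ES cells, had 19 of 32 reads from 129 in RepB MEF and 8 of 12 in WT MEF. Rab9 had 9 of 37 reads from 129 in RepB MEF and 4 of 18 in WT MEF. In the same order Fancb had 13 of 67 and 3 of 19, and Acot9 had 13 of 108 and 4 of 67. Intervals and limits cover counting error only, because amplified reads are not independent molecules.

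In total reads 61 genes averaged at least 1 CPM over both MEF libraries, with a median log2 ratio of RepB over WT MEF of -0.07. No gene was at least 2-fold higher in RepB MEF (0 of 61, against 3.35% of all genes), and 9 were at least 2-fold lower (14.8%, against 6.4% of all genes and 6.84% of other X-linked genes). With no replicate, these ratios compare 2 libraries. A group of 6 genes was close to absent from RepB MEF. They had at least 30 reads in WT MEF and at most 2 in RepB MEF, a rule chosen after the values were seen. It was met by 6 of 54 genes (11.1%), by 2.1% of other X-linked genes and by 0.552% of all genes, and its converse by 0 of 52 genes. Shroom2 had 0 reads in RepB MEF and 162 in WT MEF. Mageh1 had 0 and 80, Egfl6, an EGF-domain matrix protein gene, 0 and 76, and Kctd12b 0 and 30 in RepB and WT MEF. Rragb, a Rag GTPase gene of amino acid sensing, had 1 and 37, and Klf8, a Krüppel-like factor gene, had 2 and 30. At a floor of 3 counts per library, reads in RepB MEF were at least 83.0-fold lower for Shroom2, 41.0-fold for Mageh1, 38.9-fold for Egfl6 and 15.4-fold for Kctd12b. The ratio of WT to RepB MEF was 56.8 (exact 95% interval 9.59 to 2305) for Rragb and 23.0 (5.85 to 199) for Klf8. These folds and limits were scaled to total counts without TMM, unlike the log2 ratios.

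Apart from Egfl6, these genes are neighbours. They lie within 1.08 Mb, from Shroom2 at 149.0 Mb to Kctd12b at 150.1 Mb. The 1.22 Mb from Shroom2 to Spin2c hold 13 of the 155 genes, of which 7 had at least 30 reads in WT MEF. At most 2 reads in RepB MEF were counted for 10 of the 13, but 5 of these 10 had at most 1 read in WT MEF too, which leaves the 5 named above. The neighbours Ubqln2, with 4183 reads in RepB MEF and 2817 in WT MEF, and 2210013O21Rik, with 407 and 159, lie in the same interval and were read in both. Spin2c had 9 reads in RepB MEF and 14 in WT MEF. In WT MEF the allelic reads of Shroom2 (0 of 17 from 129), Mageh1 (0 of 23) and Kctd12b (0 of 6) came from CAST. In ES cells these genes were read in all 6 libraries. Shroom2 had 2500 and 612 reads in RepB+/-, 2552 and 2118 in RepB-/-, and 1450 and 884 in WT ES cells. Mageh1 had 1068 and 288 reads in RepB+/-, 907 and 732 in RepB-/-, and 627 and 390 in WT. The difference between MEF and ES cells was not tested.

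**Figure D5:**
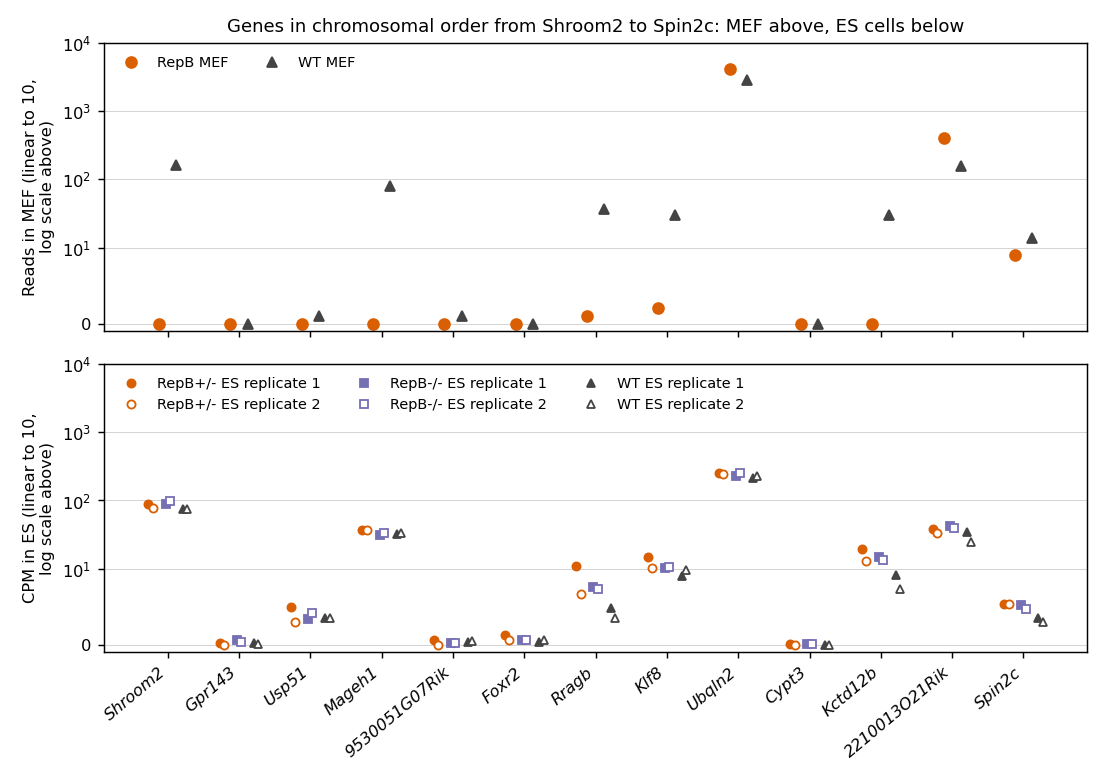
Reads per gene in RepB MEF and WT MEF (above, 1 library each) and CPM in the 6 ES libraries (below) for the 13 genes from Shroom2 to Spin2c in chromosomal order, on axes that are linear near 0 and logarithmic above. Shroom2, Mageh1 and Kctd12b have 0 reads in RepB MEF against 162, 80 and 30 in WT MEF, whereas Ubqln2 has 4183 and 2817.

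Of genes with at least 200 reads in both MEF libraries together, the highest log2 ratios of RepB over WT MEF were 0.60 for 2210013O21Rik, 0.51 for Figf, 0.45 for the spermine synthase gene Sms and 0.37 for Hccs. The lowest were -1.50 for Adgrg2, an adhesion G protein-coupled receptor gene with 287 reads in RepB MEF and 485 in WT MEF, -0.90 for Tmsb4x, the actin-binding thymosin beta 4 gene, -0.83 for Huwe1 and -0.74 for Amot. Tmsb4x had 5996 reads in RepB MEF and 6660 in WT MEF, and Huwe1 had 7426 and 7847. Lower ratios were found below the minimum of 200 reads, beyond the near-absent genes named above. Tro had 45 reads in RepB MEF and 151 in WT MEF (log2 ratio -2.43), and Capn6 had 4 and 34 (-3.20). The fibroblast marker sums of the 2 libraries are given above, and their part was not tested.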

How the data were processed

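Poly(A) RNA-seq tables of 8 libraries were analysed; 42 other samples of the series were not analysed here. The authors deposited whole-number read counts per gene in 3 tables, with columns for all reads, reads of the 129 allele and reads of the CAST allele. The submitters' processing notes name Novoalign, SAMtools, TopHat, featureCounts and the build mm9 among tools for several assays, without versions or roles; the strand setting of the counting is not given in the sources used here. Each gene's position is that of 1 exon listed in the tables.

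Alleles were tested with edgeR 4.0.16 (quasi-likelihood, library as a block, allele-by-genotype term) over genes with a mean of at least 20 allelic reads per ES library. All reads were tested with filterByExpr (minimum count 10) and TMM. All 6 ES libraries entered each fit, with Benjamini-Hochberg adjustment over all genes at 0.05. DESeq2 1.42.0, other filters and normalizations, a replicate block and omission of each library were alternatives. MEF, with 1 library each, got log2 ratios of TMM-scaled CPM (prior count 2) and exact Clopper-Pearson intervals from scipy 1.17.1. Fits ran in R 4.3.3 and were tested on simulated data. Floors of 3 counts cover counting error only. Folds of the genes near absent from RepB MEF were scaled to total counts without TMM.

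The genes, the role lists and the tests were chosen with earlier results of these data known. Named genes are those nearest 140 Mb, those with most reads, those with the largest and smallest change of share, those read from 129 in WT, the called genes with lowest adjusted p, and, for each role, the most-read; Msl3, Phf8, Ctps2, Sms, Ofd1, Scml2, Shroom2, Arhgap6, Tlr7 and the genes near absent from RepB MEF were added after their values were seen.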

Additional observations from a re-analysis of the deposited data

Results flagged for a closer look

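For Shroom2, Rragb, Klf8 and Kctd12b the CPM of all 4 RepB ES libraries lay above both WT ES libraries. The same held for 59.3% of the 81 tested genes and 22.9% of all genes, and was not computed for other X-linked genes. Reads of Shroom2, Rragb, Klf8 and Kctd12b were fewer in RepB MEF than in WT MEF. In ES cells Shroom2 (edgeR adjusted p = 0.322 in RepB+/- and 0.0697 in RepB-/-) and Klf8 (0.120 and 0.708) did not pass the test. Rragb (0.00726 and 0.0465) and Kctd12b (0.00321 and 0.0163) passed. Kctd12b lost its call without RepB+/- replicate 1 in RepB+/- (0.0649), and in RepB-/- without either RepB-/- library (0.105 and 0.0531) and without WT replicate 2 (0.160). Rragb lost it in RepB+/- without RepB+/- replicate 1 (0.174) and WT replicate 2 (0.0807), and in RepB-/- without any 1 of the RepB-/- or WT libraries (0.0670 to 0.306). Scaled to total counts without TMM, the MEF reads of Shroom2 were at least 83.0-fold lower in RepB (0 reads, against 162 in WT). Those of Kctd12b were at least 15.4-fold lower (0 reads, against 30). The ratio of WT to RepB MEF on this scale was 56.8 for Rragb and 23.0 for Klf8. In ES cells Kctd12b had 19.5 and 13.1 CPM in RepB+/-, 15.0 and 13.5 in RepB-/-, and 9.15 and 7.27 in WT, and Klf8 had 14.7 and 10.2, 10.2 and 10.5, and 9.10 and 9.81 in the same order. The difference between MEF and ES cells was not tested.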

How the results depend on the processing

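The RepB-against-WT counts of genes shifted toward 129 stayed within 1.5 times their value under every alternative run except 1: with DESeq2 the count for RepB+/- was 23 in place of 35. Omission of 1 library gave 25 to 39 in RepB+/-, 25 to 36 in RepB-/-, and 0 to 1 between RepB-/- and RepB+/-. The count of genes changed in total reads was less stable, with 13 to 36 in RepB+/- and 14 to 41 in RepB-/- when 1 library was left out. The median 129 share in RepB+/- was 34.1% with a minimum of 10 allelic reads and 31.2% from pooled reads; pooled reads gave 6.40% in WT ES cells, 2.27% in RepB MEF and 1.52% in WT MEF. The median log2 change of 129 reads was 1.67 in RepB+/- and 1.68 in RepB-/- with a pseudocount of 0.5, and in RepB-/- 2.90 with a minimum of 50 allelic reads, 2.66 with TMM-scaled library sizes, chosen after the data were seen, and 2.68 to 2.83 without 1 library. The median change of CAST reads was near 0 and changed sign: in RepB+/- it was 0.0043 with a minimum of 50 allelic reads and -0.15 to 0.11 without 1 library (0.054 without WT replicate 1), and in RepB-/- -0.053 with TMM-scaled library sizes and -0.14 to 0.11 without 1 library. In MEF 1 gene was at least 2-fold higher without a filter, and 1 with library sizes in place of TMM. The causes were not tested. Same-numbered ES libraries deviated with correlations of 0.186, 0.108 and 0.0696, and 2 numbers cannot decide whether the replicate numbers pair the samples. With a replicate block the counts for alleles were 36 in RepB+/- and 36 in RepB-/-. For total reads they were 43 and 45, against 32 and 31 without it. Depth was lowest in RepB+/- replicate 2 and limits shares of thinly read genes most.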
